A study of Poecilia latipinna with 15 samples.

Results

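The 7 female-interaction (Ff) females of the series were analysed for transcripts whose whole-brain level followed the time that a female spent near other fish. They are females 1, 2, 7, 8, 9, 17 and 19 of the 15 female sailfin mollies (*Poecilia latipinna*), chosen by their labelled treatment. The other 8 females, the male-interaction (Mm) group, were used only for comparison. All were adult, sexually experienced females that came from a semi-natural outdoor pond. Before the trial each was kept alone to raise receptivity, and the brain was taken directly after it. Ages beyond this life stage are not given in the sources used here. In the Ff group the focal female chose between a large and a small female behind clear dividers (a shoaling partner), and in the Mm group between a large and a small male. Social affiliation is the time, in s, that the focal female spent in both association zones in front of the stimulus fish. The study kept only females above a minimum of this time, so the females analysed here cover a narrow, high range of it. The study describes no transgene or drug, no group was left without company during the trial, and each library is the brain of 1 female.

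Affiliation is the tendency to stay close to other members of the species, and in poeciliid fish females shoal with other females outside of mating. In vertebrates it is known to involve the nonapeptides of the oxytocin and vasotocin family, the dopamine system and the sex and stress steroids, which act on a network of forebrain and hypothalamic nuclei. A whole-brain library averages over all of these cells. In such a sample a lower number of cells of one type and less RNA per cell cannot be told apart. The files give each transcript by its Ensembl identifier, with its length, an estimated count and TPM (the level per unit of transcript length, scaled to the same total in each female). No table used here pairs these identifiers with genes, names or sequences. The nonapeptide, immediate early, stress, monoamine, steroid and cell type marker lists could therefore not be examined, and the tissue was not checked against markers. Only 4 transcripts are named, and their functions are unknown here.

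The files list 31813 transcripts. The tests covered 21671 of them, those whose TPM exceeded 2 in at least 3 of the 15 females. These held at least 99.5% of the estimated counts of every Ff female. The Ff libraries held 5301116 to 10555933 estimated counts, with a median of 6001956, and the Mm libraries 3424641 to 9989142. By rising affiliation time the order of the Ff females was 17, 7, 1, 2, 8, 9 and 19. For each transcript a slope was fitted to the 7 females, as log2 of the level per 100 s of affiliation (voom and limma with TMM factors, which correct for differences in library make-up). A transcript was called at a 2-sided unadjusted p-value below 0.05. Its direction is rising when its level was higher in females with more affiliation, and falling when it was lower.

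A total of 1336 transcripts was called, 6.16% of those tested, of which 527 (2.43% of those tested) were rising and 809 (3.73%) were falling. The threshold alone corresponds to 1084 of 21671 transcripts, and 0 transcripts passed a Benjamini-Hochberg adjusted p-value of 0.05 in limma, where the smallest adjusted p was 0.628. The edgeR quasi-likelihood test called 1345 transcripts (6.21%), of which 1103 were among the 1336, and 0 after adjustment. DESeq2 called 1596 (7.36%), of which 1126 were among the 1336, and 59 (0.272%) after adjustment. The numbers called by limma and edgeR were thus above the number that the threshold alone corresponds to, but no single transcript passed adjustment in either. The levels of the transcripts are not independent of each other, and this excess was not tested. Between the females with the lowest and the highest affiliation time, the called transcripts had a median fitted change of 2.10-fold (quartiles 1.71 and 3.74). Over all transcripts tested the median was 1.31-fold. The transcripts were called on these same females, so a larger fitted change is in part set by the call.

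The called set was searched for the transcripts that did not rest on a single fish. A transcript was counted as called in every check when it kept its sign and its call with the ranks of affiliation time in place of seconds and with each of the 7 females left out in turn. This held for 152 transcripts (0.701% of those tested), of which 63 were rising (0.291%) and 89 were falling (0.411%). With edgeR in all of these fits the number was 198, and 127 of the 152 were among them. Without TMM factors it was 190, with 132 shared. The median fitted change over the range of affiliation was 2.79-fold in the 63 rising and 2.41-fold in the 89 falling transcripts. Their mean level over the Ff females had a median of 16.6 TPM in the rising and 12.1 TPM in the falling set, against 10.8 TPM over all transcripts tested. Since the 152 were chosen on these same females, their levels and fitted changes describe the selection and were not tested again.

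The levels of these sets in each female describe the selection. In female 17, which had the lowest affiliation time, the 63 rising transcripts lay at a median of -0.60 (log2 from the mean of the 7 females), with 1 of 63 above the mean. In female 7 the median was -0.33 and in female 1 it was -0.20, with 6 and 11 of 63 above the mean. Females 2 and 8 sat close to the mean, at medians of 0.03 for each and with 33 and 35 of 63 above it. Females 9 and 19, at the high end of affiliation, had medians of 0.65 and 0.62, with 62 and 63 of 63 above the mean. The 89 falling transcripts showed the mirror image at the ends. Their median was 0.62 in female 17, 0.40 in female 7 and 0.18 in female 1. It was -0.05 in female 2 and 0.09 in female 8, so that these females were out of order. In females 9 and 19 it was -0.60 and -0.57, with 0 and 3 of 89 above the mean. Female 9 lay farther from the mean than female 19 in both sets, although its affiliation time was the lower of the pair.

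**Figure D1:**
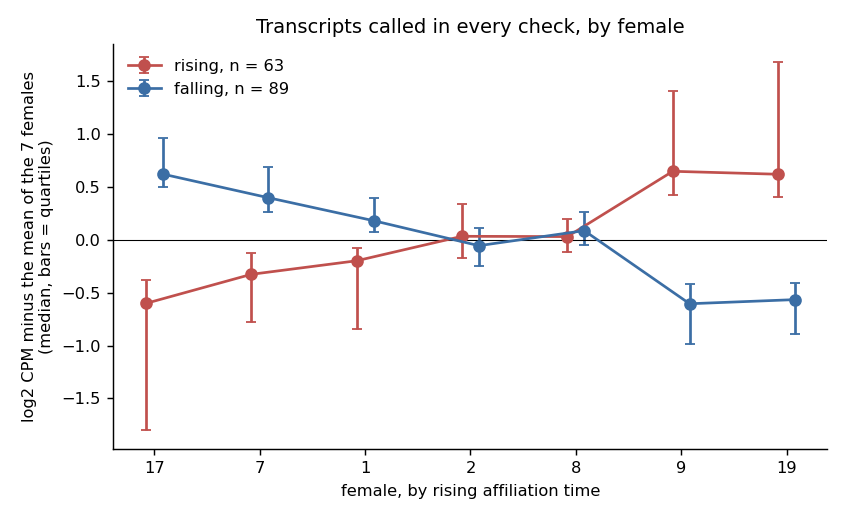
Median level (log2 CPM minus each transcript's mean over the 7 females, bars from the first to the third quartile) of the 63 rising and 89 falling transcripts called in every check, with the Ff females ordered by rising affiliation time. Female 17 and females 9 and 19 lie at opposite ends, and females 2 and 8 lie near 0.

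The transcript with the smallest p-value of all was ENSPLAT00000030620.1, of 1062 bases. Its level was 11.4 TPM in female 17, 18.3 in female 7, 32.1 in female 1, 61.5 in female 2, 39.5 in female 8, 69.9 in female 9 and 96.2 in female 19. The level thus rose from the lowest to the highest affiliation with females 2 and 8 in reversed order. The slope was 1.22 (standard error 0.15, log2 per 100 s, limma adjusted p = 0.628), an 8.83-fold change over the range of affiliation. Pearson's r of its log2 counts per unit of library size (CPM) with affiliation time was 0.975 (exact permutation p = 0.000595) and Spearman's rho was 0.964 (exact permutation p = 0.00278). Without females 17 and 19, which are farthest from the median affiliation time, r was 0.919. The slope was 1.38 within the 4 Ff females numbered 8 or lower and 1.25 within the 3 numbered 9 or higher. In the Mm females its level ran from 17.3 to 62.3 TPM with a median of 37.3, and the slope of those females alone was -0.05 (standard error 0.21), not called.

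The second rising transcript, ENSPLAT00000028826.1, of 9706 bases, had a very low estimated count at the low end of affiliation. Its estimated count was 0.0839 in female 17, 1.57 in female 7, 27.9 in female 1, 3.08 in female 2, 68.5 in female 8, 109 in female 9 and 308 in female 19. The corresponding level reached 2.6 TPM in female 9 and 7.37 TPM in female 19 and was below 1 TPM in the other females. The fitted slope of 3.93 (standard error 0.67, limma adjusted p = 0.79) depends on the offset of 0.5 counts that voom adds, and no fold is given. With limma it was 1.06 on log2(TPM + 1) and 2.27 on log2(TPM + 0.1). Within the females numbered 8 or lower it was 2.74, and within those numbered 9 or higher 4.90. Pearson's r was 0.909 (exact permutation p = 0.00536) and rho was 0.964 (exact permutation p = 0.00278), with r at 0.726 without females 17 and 19. In the Mm group, too, some females had a very low level. The transcript ran from 3.24e-05 to 6.05 TPM there, and females 12 and 13 were the ones below 0.01 TPM. These levels are estimates. Whether reads in the females with very low values were assigned to other transcripts of the same gene was not tested. The Mm slope was -0.45 (standard error 1.43) and was not called.

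Among the falling transcripts the smallest p-value belonged to ENSPLAT00000017336.1, of 3186 bases. It stood at 103.9 TPM in female 17, 57.5 in female 7, 70.6 in female 1, 54.0 in female 2, 56.7 in female 8, 29.4 in female 9 and 26.2 in female 19. The 4 middle females overlapped in no clear order, and the ends carried the slope. That slope was -0.63 (standard error 0.10, limma adjusted p = 0.79), a 3.06-fold change over the range. Pearson's r was -0.95 (exact permutation p = 0.00278) and rho was -0.821 (exact permutation p = 0.0341), with r at -0.854 without females 17 and 19. Within the 4 females numbered 8 or lower the slope was -0.14, and within the 3 numbered 9 or higher it was -0.68. The Mm females ranged from 36.2 to 67.0 TPM with a median of 48.5, and their slope was 0.19 (standard error 0.12), not called.

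The other falling transcript, ENSPLAT00000027757.1, of 3471 bases, was at a lower level. It was 15.9 TPM in female 17, 9.6 in female 7, 9.03 in female 1, 5.2 in female 2, 6.76 in female 8, 3.34 in female 9 and 4.09 in female 19. Its order was broken by the neighbouring females 2 and 8 and by females 9 and 19. The slope was -0.75 (standard error 0.12, limma adjusted p = 0.79), a 3.83-fold change. Pearson's r was -0.95 (exact permutation p = 0.00218) and rho was -0.929 (exact permutation p = 0.00675), with r at -0.939 without females 17 and 19. The slope was -0.72 within the females numbered 8 or lower and -0.76 within those numbered 9 or higher. In the Mm group the level ran from 3.67 to 11.0 TPM with a median of 6.33, and the slope was 0.14 (standard error 0.16), not called.

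The 8 correlations of these 4 transcripts had Benjamini-Hochberg adjusted p-values of 0.00444 to 0.0341. The smallest p that all orders of 7 females can give for an untied measure is 0.000397. The transcripts were selected for their slope in these females, so the correlations describe them and are no second test. The adjusted p-values given with the slopes are those of limma. DESeq2, with 59 calls after adjustment over all transcripts, gave the 4 smaller values. In the order above, their unadjusted p-values in its Wald test were 4.9e-15, 7.2e-07, 2.4e-09 and 9.2e-07. Their adjusted values in DESeq2 are not given here. Whether they are among its 59 calls cannot be read from the limma values. The edgeR quasi-likelihood test gave much larger unadjusted p-values for them, 2.0e-05, 0.0011, 0.00018 and 0.00037, so their size depended strongly on the test. These rest on the same females and the same selection.

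**Figure D2:**
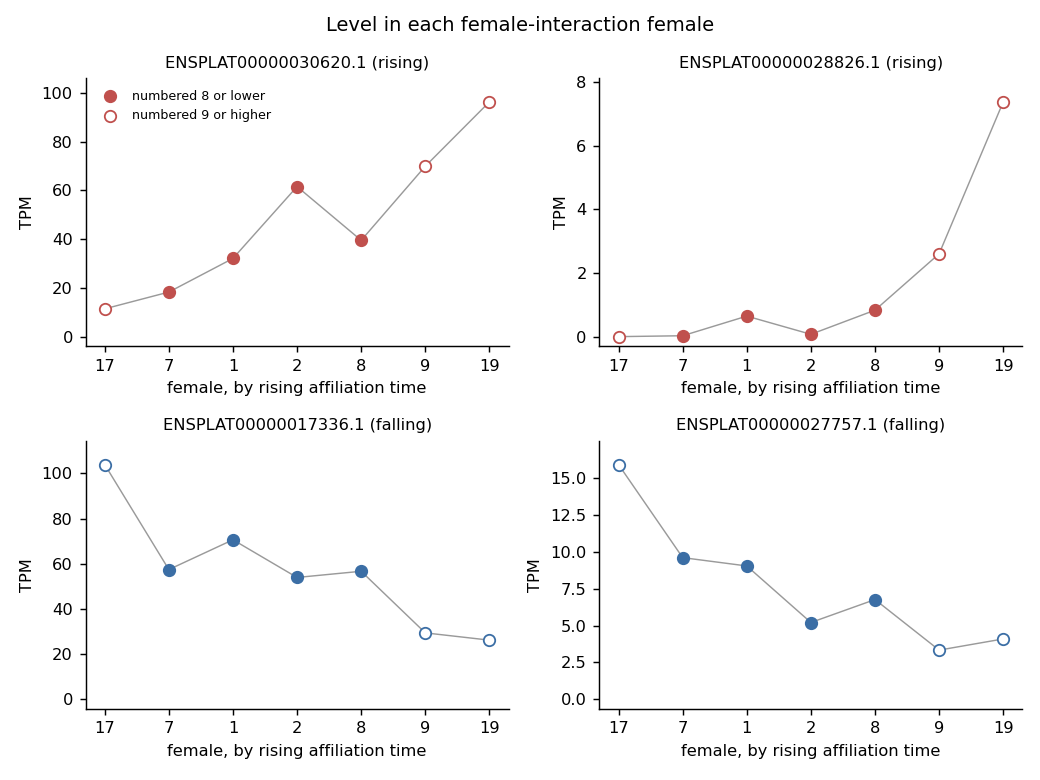
Level in TPM of the 4 named transcripts in each Ff female, ordered by rising affiliation time (the spacing is by order, not by seconds). Filled points are females numbered 8 or lower and open points females numbered 9 or higher. Levels ran from 11.4 to 96.2 TPM in the first rising transcript and from 103.9 down to 26.2 TPM in the first falling one.

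Single females weighed heavily on the called set as a whole. Leaving out 1 female at a time gave between 1024 (without female 9) and 1674 (without female 8) called transcripts. Without female 17 there were 1623, of which only 434 were among the 1336, and 993 of them (61.2%) were rising, against 39.4% rising with all 7 females. Without female 19 there were 1074 with 610 shared, and without female 9 there were 1024 with 676 shared. By contrast 1152 of the 1336 were still called without female 8 and 1088 without female 2. Fewest of the 1336 were thus kept when a female at an end of the affiliation range was left out, and such females weigh most in any fitted slope. The set called without female 17 was mostly rising, but it was largely made up of other transcripts.

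The Ff females split into 4 that are numbered 8 or lower (1, 2, 7 and 8) and 3 that are numbered 9 or higher (9, 17 and 19), and all 3 females at the ends of the range belong to the second group. What the numbers stand for is not given in the sources used here. When the model held this number group as a further term, 1482 transcripts were called, and 1020 of the 1336 were among them. The slopes were also fitted within each number group. All 1336 called transcripts had the same sign within the 3 later females, as had 19432 of all 21671 tested. These 3 females span the whole range of affiliation. Of the 1336, 1055 (79%) also had it within the 4 earlier ones. Of the 19432 tested transcripts that had it within the later females, 11181 also had it within the earlier ones (51.6% of all tested). Among the earlier females alone 283 transcripts passed the unadjusted p-value, 38 of them among the 1336. Among the later females alone 1597 passed, 788 of them shared. For the 152 transcripts called in every check the sign was shared by both number groups in 143 (94.1%). These shares include the females that chose the transcripts and are a description. Both groups hold too few females for correlations within them.

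The direction of the called slopes went with transcript length and with abundance. The tested transcripts were ranked by length and divided into 4 classes of nearly equal size, and likewise by mean TPM. In the longest class, from 3139 bases upward, 343 of the 405 called slopes were falling and 15.3% were rising. In the shortest class, up to 972 bases, 57.7% of the 248 called slopes were rising. Over all transcripts tested, called or not, 37.9% of the slopes in the longest class and 54.4% in the shortest were positive. The called slopes of the shortest class thus lay near the share of their class, and those of the longest well below it. The whole longest class leaned toward falling, and how far its called slopes go beyond that lean was not tested. The share of transcripts called was 7.48% and 4.57% in these classes, beside 6.16% over all. The 89 falling transcripts called in every check had a median length of 3492 bases and the 63 rising ones of 1587 bases, against 1782 bases for all transcripts tested. Over all transcripts of the longest class the median slope was -0.05 (log2 per 100 s) and in the shortest it was 0.04. By mean TPM, from the lowest class to the highest, 33.7%, 23.7%, 34.9% and 60.5% of the called slopes were rising. The share of positive slopes over all transcripts of these classes was 45.6%, 43.5%, 49.2% and 65.4%. In the most abundant class, above a mean of 26.8 TPM, the called slopes were thus no more often rising than the class as a whole. In each of the other classes by mean TPM they were less often rising than their class.

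The length pattern was also expressed as a measure of each library. This measure comes from the same counts as the slopes, so it restates the pattern and adds no separate support. The median level of the longest class minus that of the shortest (log2, relative to the mean of all 15 females) was 0.11 in female 17, -0.09 in female 7, 0.10 in female 1, 0.01 in female 2, -0.09 in female 8, -0.05 in female 9 and -0.13 in female 19. Female 17 thus stood at one end of this measure and female 19 at the other. Its r with affiliation time was -0.679 (exact permutation p = 0.101, adjusted p = 0.256), and r was -0.237 without females 17 and 19. When each female's trend of the level on length was taken out before the fit, an alternative chosen after the data were seen, 1195 transcripts were called and 1088 of the 1336 were among them. The rising share in the longest class was then 37.1% of 286 called slopes in place of 15.3%. Taking out the trend evens the slopes of the length classes by design, so this change is in part set by the removal. From the shortest to the third class it was 51.6%, 41.5% and 38.2%, in place of 57.7%, 51.5% and 42.2%. The slopes of the named transcripts were then 1.20, 4.26, -0.61 and -0.74, beside 1.22, 3.93, -0.63 and -0.75.

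**Figure D3:**
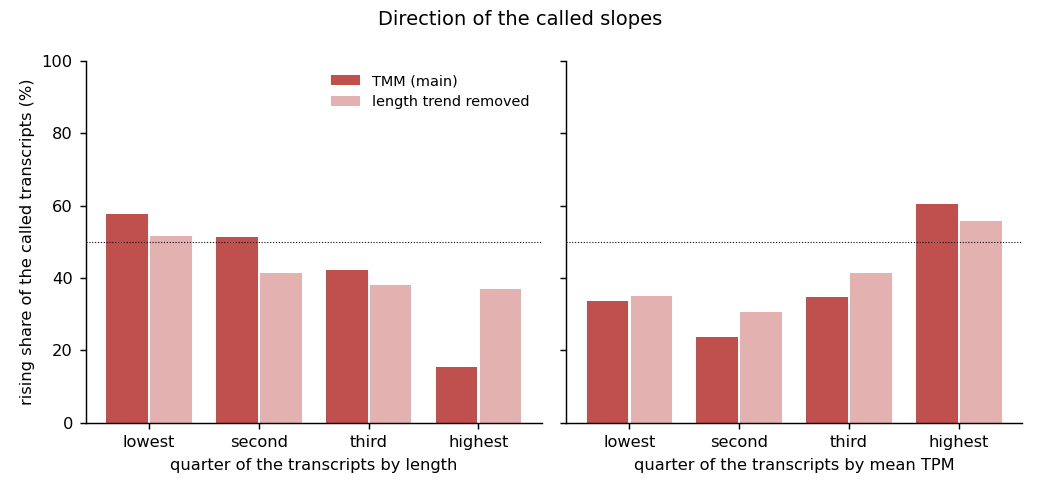
Rising share (%) of the called slopes in 4 classes of the tested transcripts by length and by mean TPM in the Ff females, with TMM factors alone and with each female's length trend removed. In the longest class the share is 15.3% and 37.1%, and in the shortest class 57.7% and 51.6%. The change by length is in part set by the removal itself.

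Other measures of the Ff libraries were compared with affiliation time in the same way, 14 relations over 7 measures. The TMM factor was 1.01 in female 17, 1.02 in female 7, 1.03 in female 1, 1.02 in female 2, 1.00 in female 8, 0.97 in female 9 and 0.95 in female 19. Pearson's r of -0.77 had an exact permutation p of 0.0474, and Spearman's rho of -0.679 one of 0.11, both with an adjusted p of 0.256. The 100 most abundant transcripts took from 16.0% of the counts in female 1 to 19.8% in female 19 (r = 0.725, exact permutation p = 0.0716, adjusted p = 0.256). For total count r was -0.135 (exact permutation p = 0.767) and rho was -0.607 (exact permutation p = 0.167). For the number of transcripts detected r was -0.425 (exact permutation p = 0.342) and rho was -0.536 (exact permutation p = 0.236). Neither measure could be told from no relation with 7 females. The first principal component of the Ff females held 24.8% of the variance (r = 0.482, exact permutation p = 0.281), and the second 22.2% (r = -0.0989, exact permutation p = 0.838).

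The direction of the called slopes also differed between settings with and without a factor for library make-up. With DESeq2 size factors in place of TMM factors 40.4% of 1335 called slopes were rising, close to the 39.4% of the TMM fit. Without TMM factors 23.7% of 1424 called slopes were rising. On log2(TPM + 1) with limma, where no factor is applied, 14.1% of 2138 were rising, and on log2(TPM + 0.1) 15.2% of 2111. The median slope of all transcripts was 0.01 with TMM factors, -0.03 without them and -0.08 on log2(TPM + 1). With sample quality weights 53.7% of 1422 were rising. Over the settings run, the rising share thus ranged from 14.1% to 61.2%, the highest without female 17. With each female's length trend removed, 41.7% of 1195 called slopes were rising, beside 39.4% in the TMM fit. This removal was run with TMM factors only, so the part of the length measure in the differences between settings was not tested.

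**Figure D4:**
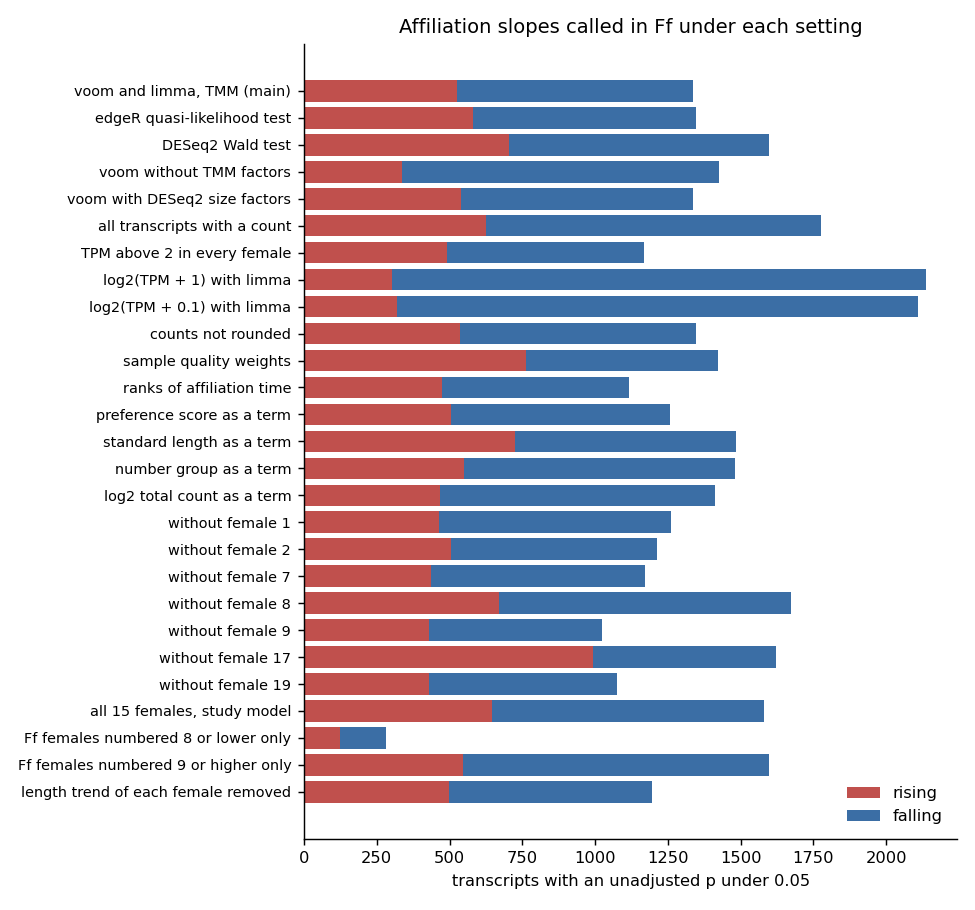
Number of rising and falling transcripts with an unadjusted p-value below 0.05 for the Ff affiliation slope under each setting. Totals run from 283 (females numbered 8 or lower only) to 2138 (log2(TPM + 1)), beside 1336 in the main fit, and without female 17 the rising share is 61.2%.

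Behavior and size other than affiliation were entered as terms one at a time. With the preference score in the model 1257 transcripts were called for affiliation, and 1070 of the 1336 were among them. With standard length 1483 were called and 885 were shared, and 48.9% were rising. With log2 of the total count 1413 were called and 1132 were shared. The named transcripts were called in each of these fits.

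The same relation was then asked of the 8 Mm females, none of which is in the Ff fit. In the Mm females alone 1130 transcripts (5.21%) had an affiliation slope at an unadjusted p-value below 0.05, and 0 after adjustment (limma). Of the 1336 Ff transcripts 65 (4.87%) were also called in the Mm females, 31 with the same sign and 34 with the opposite sign. The share of the Ff transcripts called in the Mm females was thus close to the share of all transcripts called there. Signs of the Mm and Ff slopes were the same in 661 of the 1336 (49.5%) and in 51.4% of all transcripts tested. Of the 152 called in every check, 9 (5.92%) were called in the Mm females, 7 with the same sign. Over all transcripts tested 543 of the 1130 called there had the same sign. Among the 63 rising transcripts 44 (69.8%) had a rising Mm slope, called or not, and among the 89 falling ones 43 (48.3%) had a falling one. In all 527 rising and 809 falling called transcripts these shares were 55.8% and 45.4%.

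The difference between the Ff and Mm slopes was tested in one limma model over the 15 females. At an unadjusted p-value below 0.05 it was called in 1320 transcripts (6.09%), with a higher Ff slope in 551 (2.54%) and a lower one in 769 (3.55%). None, 0, passed adjustment in limma. The edgeR quasi-likelihood test gave 1167 (5.39%) and 0 after adjustment, and DESeq2 1683 (7.77%) and 26 (0.12%). In the order given above, the Ff minus Mm slopes of the named transcripts were 1.28 ± 0.29, 4.36 ± 1.94, -0.81 ± 0.16 and -0.89 ± 0.20 (estimate ± SE). Their adjusted p-values in limma were 0.686, 0.805, 0.686 and 0.686. These transcripts were chosen for a steep Ff slope, so that a difference from the Mm slope is in part set by the choice. With 0 adjusted calls in limma, no transcript is named here as particular to the female-interaction context.

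**Figure D5:**
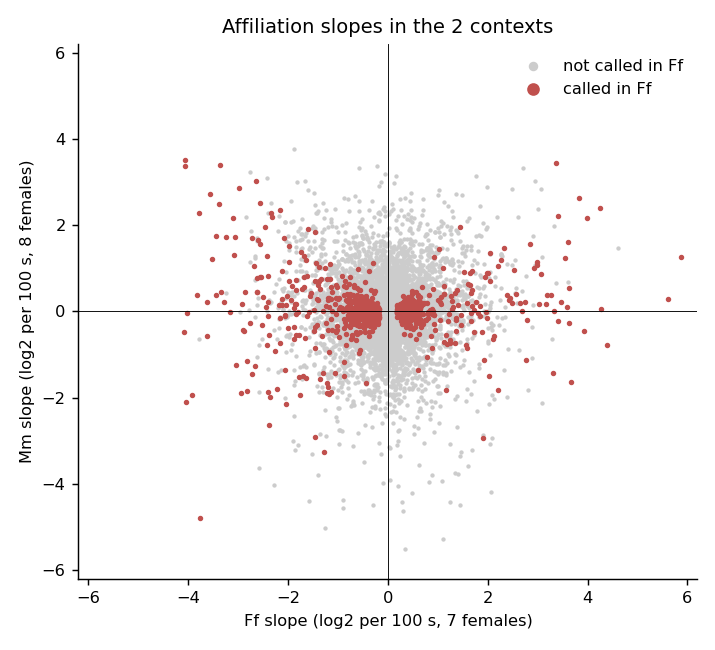
Affiliation slope (log2 per 100 s) of each tested transcript in the 7 Ff females against that in the 8 Mm females, with the 1336 transcripts called in Ff in red. The red points lie on both sides of 0 in the Mm females, where 49.5% of them had the sign of their Ff slope.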

How the data were processed

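Whole-brain single-end RNA-seq of 15 females was used. The authors trimmed reads (a Python script and cutadapt), examined them with FastQC, pseudoaligned them to Ensembl transcripts with kallisto 0.43.0, and deposited its estimated count for each transcript, without scaling between libraries. The authors also deposited TPM, which kallisto computes from estimated count and effective length. Summing by gene was not possible here, so all results are per transcript. Groups came from the sample titles. Affiliation time, preference score and standard length were joined by female number from the study's table of behavior. Their values are not printed.

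The filter (TPM over 2, at least 3 females) left 21671 transcripts and dropped 10142. Estimated counts were rounded. The main test was voom and limma 3.58.1 with TMM factors on the 7 Ff females, instead of the study's model over 15, which was an alternative. The study's shuffled-label rate was not rebuilt. R 4.3.3, edgeR 4.0.16, DESeq2 1.42.0, Python 3.11.15, NumPy 2.4.6 and SciPy 1.17.1 were used. The fits were tested on simulated counts with known slopes, drawn independently and with the same spread setting for every transcript. That tested the recovery of known slopes and not the calls made here. P-values measure the spread between females, each 1 library. No pair of Ff libraries was near identical (chi-square per degree of freedom 11.2 or more).

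The named transcripts are the 2 rising and 2 falling ones with the smallest p-value among those called in every check. The group analysed, the tests and the lists were chosen with earlier results of these data known. The called slopes use the unadjusted p-value, and the correlations log2 CPM. The length trend alternative was added after the data were seen. Alternatives were edgeR, DESeq2, scaling, filters, log2(TPM + 1) and log2(TPM + 0.1), rounding, quality weights, ranks, preference score, standard length, number group and library size as terms, the study's model, each number group alone, adjusted p-values, and each Ff female left out.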

Additional observations from a re-analysis of the deposited data

Results flagged for a closer look

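In the Ff group the estimated count of female 8, 10555933, stood apart from the other females by a gap of 0.726 of the range. It was the 1 of 18 sets of values examined in this way to do so, and chance gives about 1 in 20. Without female 8, 1674 transcripts had an affiliation slope at an unadjusted p-value below 0.05, and 1152 of the 1336 were among them.

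The affiliation slopes of the named transcripts differed between contexts at an unadjusted p-value below 0.05 in limma. The Ff minus Mm slope was 1.28 for ENSPLAT00000030620.1, 4.36 for ENSPLAT00000028826.1, -0.81 for ENSPLAT00000017336.1 and -0.89 for ENSPLAT00000027757.1. None passed adjustment over all transcripts, where the smallest adjusted p was 0.686, and the transcripts had been chosen for their Ff slope.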

How the results depend on the processing

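The count of 1336 called transcripts changed by more than 1.5 times with log2(TPM + 1), to 2138, with log2(TPM + 0.1), to 2111, and within the 4 females numbered 8 or lower, to 283. At adjusted p-values below 0.05 and below 0.1 it was 0 in limma. With every transcript that had a count it was 1775 of 28523, and with a TPM above 2 in every female 1168 of 15090. In the study's model over 15 females it was 1580, with 1056 shared. Leaving out 1 Ff female moved it from 1024 to 1674, and the count of slope differences (1320) from 951 (without female 17) to 1499 (without female 8). That count was 980 with sample quality weights and 933 with ranks. Its split, 41.7% with a higher Ff slope, was 27.3% with log2(TPM + 1), 50% with quality weights and 51.9% without female 17. Within the females numbered 8 or lower alone 3 of the 4 named transcripts were not called. All 4 kept their sign in every alternative run on them. No paired analysis was possible because each female has a number of her own, which the contexts do not share. With 7 females and a slope as the outcome, the number of fish and the narrow range of affiliation limit the precision.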

Other observations

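Of the Ff libraries, females 7 and 8 and females 1 and 2 were the most alike, while other neighbours in number were not. Over the tested transcripts, the SD of the log2 difference between females was 1.16 for females 7 and 8, the closest of 21 pairs, and 1.51 for females 1 and 2, the second closest. Of the other neighbours in number, it was 1.62 for females 2 and 7 and 1.82 for females 8 and 9. It was 1.71 for females 9 and 17 and 1.64 for females 17 and 19, and the widest was 1.83 for females 2 and 9. Females 7 and 17 (1.55) and females 8 and 17 (1.56), not neighbours in number, were the next closest after females 1 and 2. Females 1 and 2 also lay together on the second principal component, at -114 and -122.1, where the other 5 females lay between 27.1 and 75.2. Females 7 and 8 lay together on the first, at -92.8 and -97.0. By affiliation, 3 positions separate females 7 and 8, while females 1 and 2 are neighbours. This pattern was noticed after the data were seen and was not tested.

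The level followed the affiliation order of all 7 females without exception (rho of 1 or -1) in 7 of the 21671 transcripts (0.0323%), 3 rising and 4 falling. Among all orders of 7 untied values, a fraction of 0.000397 does so. The count lay near that fraction and is no result about these transcripts. Of the 7 transcripts, 5 were among the 1336 called transcripts, and 1 was among the 152 called in every check. Of the 1336 called transcripts, 208 (15.6%) had an estimated count of 0 in 1 or more Ff females, close to the 14.9% of all transcripts tested.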
